A study of Mus musculus with 8 samples.

Results

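Ddit4l (DNA damage inducible transcript 4 like, also called REDD2), an inhibitor of mTOR signalling, and 9 core genes of the mTOR pathway were followed in round spermatids, the haploid germ cells that reshape into sperm, of mice with and without the BrdtΔBD1 mutation. All probe sets that the platform annotation gives to exactly 1 gene, that gene being Ddit4l, Ddit4, Tsc1, Tsc2, Rheb, Akt1, Mtor, Rptor, Rictor or Deptor, were taken, which gave 30 of 45037 probe sets and 10 of 18193 genes. Ddit4l was singled out because its level differed between mutant and control arrays in an earlier look at the same values, and the others were added as its pathway. The mutant minus control values of the 10 genes are therefore descriptions and carry no test.

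The mutant group comprised 4 arrays of round spermatids from BrdtΔBD1 mice. Their allele removes bromodomain 1 of BRDT, a protein of the testis that binds acetylated histones through its bromodomains. The control group comprised 4 arrays of round spermatids from control mice, whose Brdt genotype the labels do not spell out. All mice were 129 Sv/Ev adults of 2 to 4 months, and the cells of 7 animals were pooled for each array after separation on an albumin gradient, so a value is a mean over 7 animals and says nothing of single mice. RNA was read on Affymetrix arrays, and all values below are log2 intensities as deposited, on which a difference of 1 is a doubling.

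The mTOR kinase works in a pair of protein complexes, one built around RPTOR and the other around RICTOR, that drive protein synthesis and growth and hold back autophagy. Growth factor signals reach it through AKT, which inhibits the TSC1-TSC2 complex, and TSC2 in turn switches off RHEB, the small GTPase that activates mTOR. DDIT4 and DDIT4L are stress-induced proteins that restrain mTOR through the TSC complex, and DEPTOR binds the kinase directly and inhibits it. In the testis, mTOR signalling is best known for its part in the growth and differentiation of spermatogonia and in the Sertoli cells that support germ cells.

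The stretches upstream of the annotated starts of Ddit4l and of its paralog Ddit4 are shown because these genes differed in opposite directions. They are the 250 bases before each gene's start in RefSeq (build GRCm38.p6), with matches to the motifs named below in capitals. The stretch of Ddit4l lies at chr3:137623422-137623671 on the plus strand and that of Ddit4 at chr10:59951771-59952020 on the minus strand.
Ddit4l: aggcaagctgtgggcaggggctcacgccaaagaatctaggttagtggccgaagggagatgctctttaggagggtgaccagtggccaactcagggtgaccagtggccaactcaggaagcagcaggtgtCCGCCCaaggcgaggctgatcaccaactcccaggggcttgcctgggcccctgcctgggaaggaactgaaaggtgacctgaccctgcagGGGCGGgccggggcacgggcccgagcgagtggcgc
Ddit4: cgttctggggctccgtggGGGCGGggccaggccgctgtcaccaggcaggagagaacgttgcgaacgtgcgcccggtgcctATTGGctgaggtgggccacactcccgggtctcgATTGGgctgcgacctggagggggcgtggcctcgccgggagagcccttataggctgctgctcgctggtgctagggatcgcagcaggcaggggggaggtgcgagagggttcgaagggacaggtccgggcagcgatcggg

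The letter patterns searched on both strands were the TATA box (TATAAA), the CCAAT box (CCAAT), the GC box (GGGCGG), the cAMP response element (TGACGTCA), its core (TGACG, which the full element contains) and the E-box (CACGTG). The Ddit4l stretch held 2 GC boxes and the Ddit4 stretch 1 GC box and 2 CCAAT boxes. Among 32817 mouse promoter stretches of the same length, 32.7% held a GC box, 33.8% a CCAAT box, 12.4% a TATA box, 1.55% the full cAMP response element, 17.7% its core and 6.02% an E-box. The last 4 patterns were in neither stretch, which says only that these letters are not in these windows. The Ddit4l stretch also holds a run of 21 bases, agggtgaccagtggccaactc, in 2 adjacent copies that start at positions -181 and -160 relative to the gene start. An exact repeat of at least 20 bases occurs in 0.987% of the promoter stretches.

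Correlations between arrays ran from 0.970 to 0.994 (Pearson r). The 16 round spermatid markers, among them protamines and acrosomal genes, averaged 13.44 to 13.71 on mutant and 13.44 to 13.68 on control arrays. The mean of 22 Sertoli cell markers was 6.01 to 7.50 on mutant and 5.11 to 5.89 on control arrays, with 21 of the 22 higher in mutant arrays on average and 6 past the threshold, Vim among them at 9.24 in mutant and 6.29 in control arrays. The defining marker Wt1 was at 5.10 in mutant and 3.95 in control arrays (adjusted p = 0.090, limma). Amh (1.95 and 1.97) and Sox9 (3.80 and 3.80) differed by only -0.017 and 0.0048, both at low readings, and Sox9 is counted among the 21. Of the 22 markers, 7 had a mean under 4. Of the other marker lists, spermatogonia genes averaged 5.19 in mutant and 4.40 in control arrays, spermatocyte genes 8.97 and 8.48, Leydig genes 5.03 and 4.91, and peritubular, vascular and blood genes 3.46 and 3.18. Of these, 1 spermatogonial and 1 gene of the last list passed the threshold, upward. The part of these markers in the differences below was not tested beyond the covariate values given. In a check of RNA integrity, the excess of the 3' over the 5' Gapdh control signal was 0.33 to 0.94 on mutant arrays, against 1.68, 0.48, 2.05 and 0.46 on control arrays 1 to 4, so control arrays 1 and 3 were apart from the rest.

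**Figure D1:**
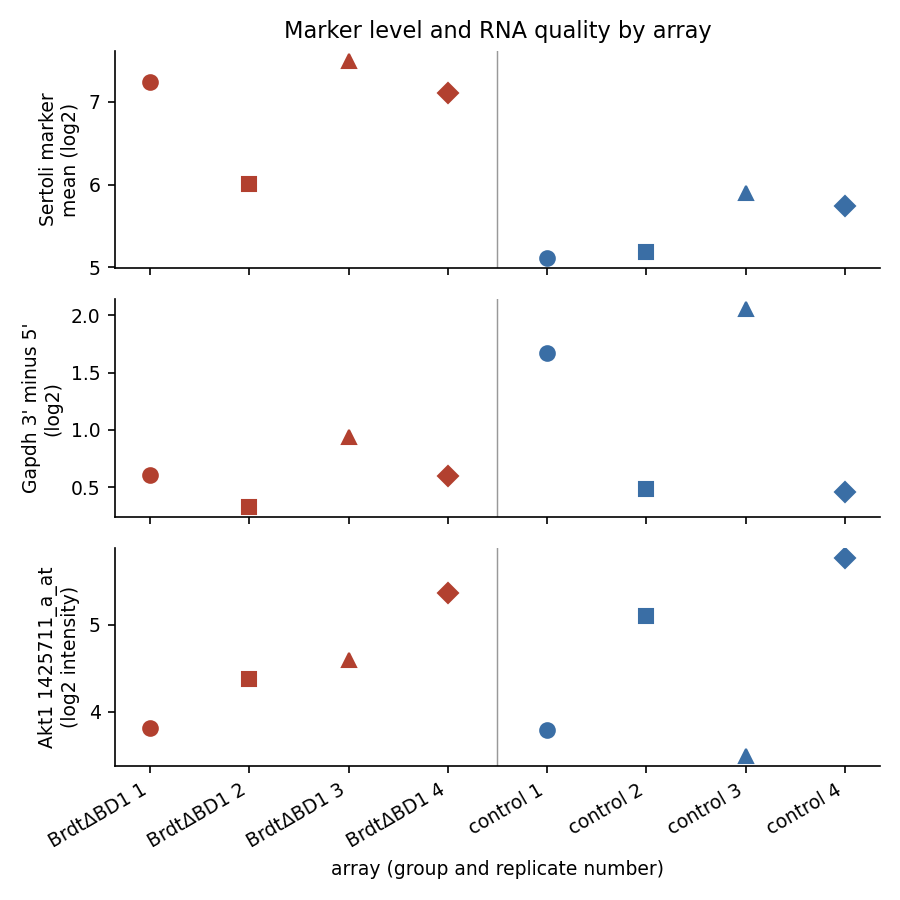
Sertoli marker mean (22 genes), excess of the 3' over the 5' Gapdh control signal and the Akt1 probe set 1425711_a_at on each array, all on the log2 scale, with BrdtΔBD1 arrays at the left and control arrays at the right. The Sertoli mean is 6.01 or more on all mutant arrays and 5.89 or less on all control arrays, and control arrays 1 and 3 combine the highest Gapdh differences with the lowest Akt1 values, 3.79 and 3.50. Mutant array 1 has nearly the same Akt1 value, 3.81, with a Gapdh difference of 0.60.

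Ddit4l was about 6 times lower in mutant spermatids. Its brightest probe set, 1451751_at, read 6.08, 5.71, 5.44 and 5.96 on mutant arrays 1 to 4, against 8.72, 8.20, 8.41 and 8.32 on control arrays 1 to 4. The groups were far apart, since the highest mutant array lay more than 2 log2 units under the lowest control array, and within each group the arrays stayed within 0.64 and 0.52. The means were 5.80 ± 0.28 in mutant and 8.41 ± 0.22 in control arrays (SD, n = 4 each), a log2 difference of -2.62 (SE 0.17) or a 6.13-fold lower level. In bulk RNA, fewer cells that express a gene and less of its RNA per cell cannot be told apart. The difference was -2.46 (SE 0.20) without control arrays 1 and 3, and -2.54 (SE 0.33) with the Sertoli marker mean as a covariate, which compares the groups at an equal marker level that no mutant and control array share.

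The other probe sets of Ddit4l read low. Probe set 1444139_at read 3.57, 3.27, 3.52 and 3.48 on mutant arrays, against 3.85, 3.64, 3.52 and 3.97 on control arrays, and 1439332_at read 2.93, 2.41, 2.66 and 2.71 against 3.10, 2.60, 2.86 and 2.87. Their differences had the same sign, -0.28 (SE 0.13) and -0.18 (SE 0.15), and the groups overlapped in both. Values this low may lie close to the floor of the array readings, where a fold change in RNA is compressed, which was not tested here. By mean level, 1444139_at stood at percentile 62.9 of all probe sets and 1439332_at at percentile 33.2. Which part of the transcript each probe set reads is not known here.

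**Figure D2:**
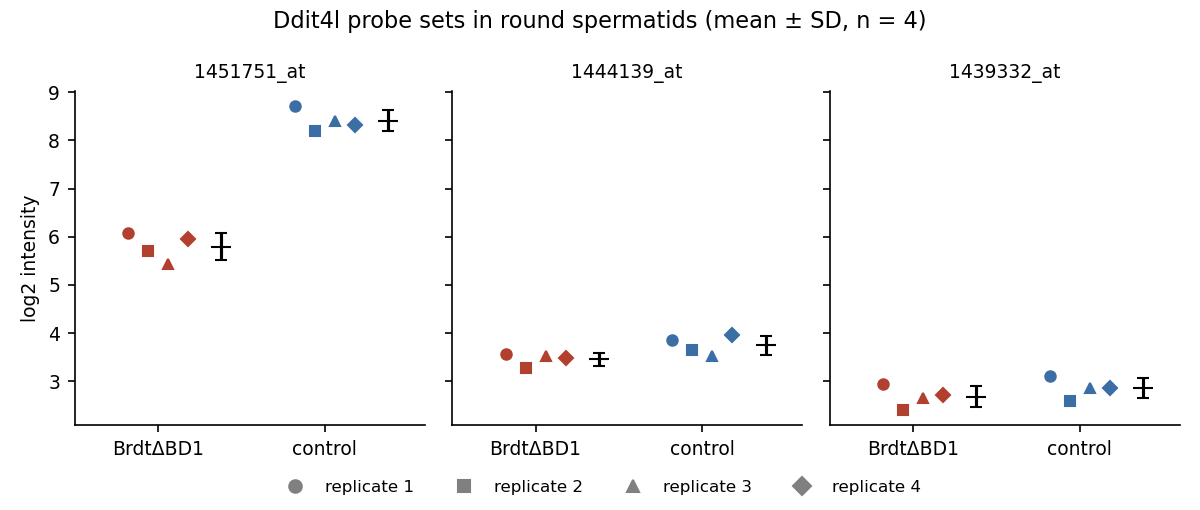
Log2 intensity of the 3 Ddit4l probe sets on each array, with BrdtΔBD1 arrays left of control arrays, marker shapes for the replicate numbers and bars for mean ± SD (n = 4). Probe set 1451751_at separates the groups at 5.44 to 6.08 in mutant and 8.20 to 8.72 in control arrays, while 1444139_at and 1439332_at stay under 4 in both.

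Ddit4 (REDD1), the stress-induced paralog of Ddit4l, differed the other way at a low level. Its only probe set, 1428306_at, read 3.60, 3.50, 4.43 and 4.40 on mutant arrays, against 3.20, 2.88, 3.32 and 3.10 on control arrays. The groups did not overlap, and mutant arrays 3 and 4 were the highest. The difference was 0.86 (SE 0.23). With the Sertoli marker mean as a covariate it was 0.21 (SE 0.37), and without control arrays 1 and 3 it was 0.99 (SE 0.31).

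For Tsc1, the subunit that stabilises TSC2, the probe sets differed in sign. The brightest, 1422043_at, read 5.07, 4.31, 5.18 and 4.86 on mutant arrays, against 6.11, 4.98, 5.90 and 5.43 on control arrays. Mutant arrays tended to be lower but overlapped the control range through control array 2, with a difference of -0.75 (SE 0.27). It was -0.35 (SE 0.27) without control arrays 1 and 3, which had the highest Tsc1 values, and -1.45 (SE 0.45) with the Sertoli covariate. Probe set 1455252_at read 3.93, 4.40, 3.66 and 3.82 on mutant arrays, against 3.92, 3.55, 3.78 and 3.10 on control arrays, a difference of 0.36 (SE 0.21). The third, 1439989_at, stayed between 2.24 and 2.73 on all arrays, with the sign of the brightest at -0.20 (SE 0.10). Both dimmer probe sets had means under 4 in each group. No direction for Tsc1 as a gene can be read from 1 brighter probe set and low ones that disagree.

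Tsc2, the GTPase-activating subunit, was read by 1452105_a_at at 5.15, 5.65, 5.60 and 5.64 on mutant arrays, against 5.27, 5.44, 5.60 and 6.40 on control arrays. The groups overlapped almost fully, and control array 4 was the highest. The difference of -0.16 (SE 0.24) was smaller than its error.

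Rheb, the GTPase that activates mTOR, was 2.31-fold higher in mutant spermatids. Its probe set 1416636_at read 9.81, 9.54, 9.12 and 8.81 on mutant arrays, against 8.23, 8.80, 7.80 and 7.62 on control arrays. The groups only just missed overlapping, as mutant array 4 lay at 8.81 and control array 2 at 8.80. The means were 9.32 ± 0.45 and 8.11 ± 0.52 (SD, n = 4 each), a difference of 1.21 (SE 0.29). It was 1.11 (SE 0.39) without control arrays 1 and 3 and 1.85 (SE 0.51) with the Sertoli covariate.

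Akt1, the kinase that inhibits the TSC complex, had 4 probe sets. The brightest, 1416657_at, read 6.97, 6.38, 7.15 and 7.16 on mutant arrays, against 7.33, 6.99, 7.40 and 7.42 on control arrays, a difference of -0.37 (SE 0.19) with overlapping groups. With the Sertoli covariate it was -1.07 (SE 0.22). Probe set 1425711_a_at read 3.81, 4.38, 4.60 and 5.37 on mutant arrays, against 3.79, 5.10, 3.50 and 5.77 on control arrays. In the control group it was low on arrays 1 and 3, the ones with the large Gapdh excess, and high on arrays 2 and 4, and the part of RNA quality in this was not tested. Its difference was 0.0013 (SE 0.53), with an error too wide to say more, and -0.90 without control arrays 1 and 3. The remaining Akt1 probe sets had means under 4 in both groups.

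Mtor itself was read by 1417592_at at 11.71, 11.70, 11.58 and 11.61 on mutant arrays, against 12.12, 11.70, 11.73 and 11.63 on control arrays. Apart from control array 1, all arrays lay within 0.15 of each other. The difference was -0.14 (SE 0.12), and 0.06 (SE 0.23) with the Sertoli covariate. Its other probe sets, 1436267_a_at and 1446185_at, stayed between 2.08 and 2.69 on all arrays.

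The scaffold genes of the mTOR complexes gave mixed readings. For Rptor, the scaffold of complex 1, probe set 1434619_at read 6.35, 5.11, 6.08 and 6.83 on mutant arrays, against 5.83, 4.91, 5.26 and 6.31 on control arrays, and 1430784_a_at read 5.54, 5.58, 5.12 and 5.44 against 5.998, 5.84, 5.40 and 6.14. The differences had opposite signs, 0.51 (SE 0.40) and -0.43 (SE 0.18), each with overlapping groups, and the third probe set stayed under 2.25. With the Sertoli covariate the first turned to -0.56 (SE 0.65) and the second was -0.06 (SE 0.31). For Rictor, the scaffold of complex 2, probe set 1435698_at read 4.97, 3.74, 3.74 and 4.04 on mutant arrays, against 3.06, 3.18, 3.45 and 3.52 on control arrays. All mutant arrays lay above all control arrays, and mutant array 1 was the highest. The difference was 0.82 (SE 0.27), 0.54 without mutant array 1, 0.77 (SE 0.36) without control arrays 1 and 3, and 0.29 (SE 0.48) with the Sertoli covariate. The other 4 Rictor probe sets read between 2.15 and 3.64.

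Deptor, the direct mTOR inhibitor, was close to the floor. Its 6 probe sets ran from 1.57 to 3.37 over all arrays, and none had a mean of 4 or more. The brightest on average, 1428622_at, read 2.78, 2.67, 2.80 and 2.61 on mutant arrays, against 2.87, 3.06, 2.85 and 2.81 on control arrays, a difference of -0.18 (SE 0.10). The Deptor probe sets differed in sign, up to 0.36 (SE 0.22) at 1451348_at. No level of Deptor RNA can be compared between the groups from readings this low.

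**Figure D3:**
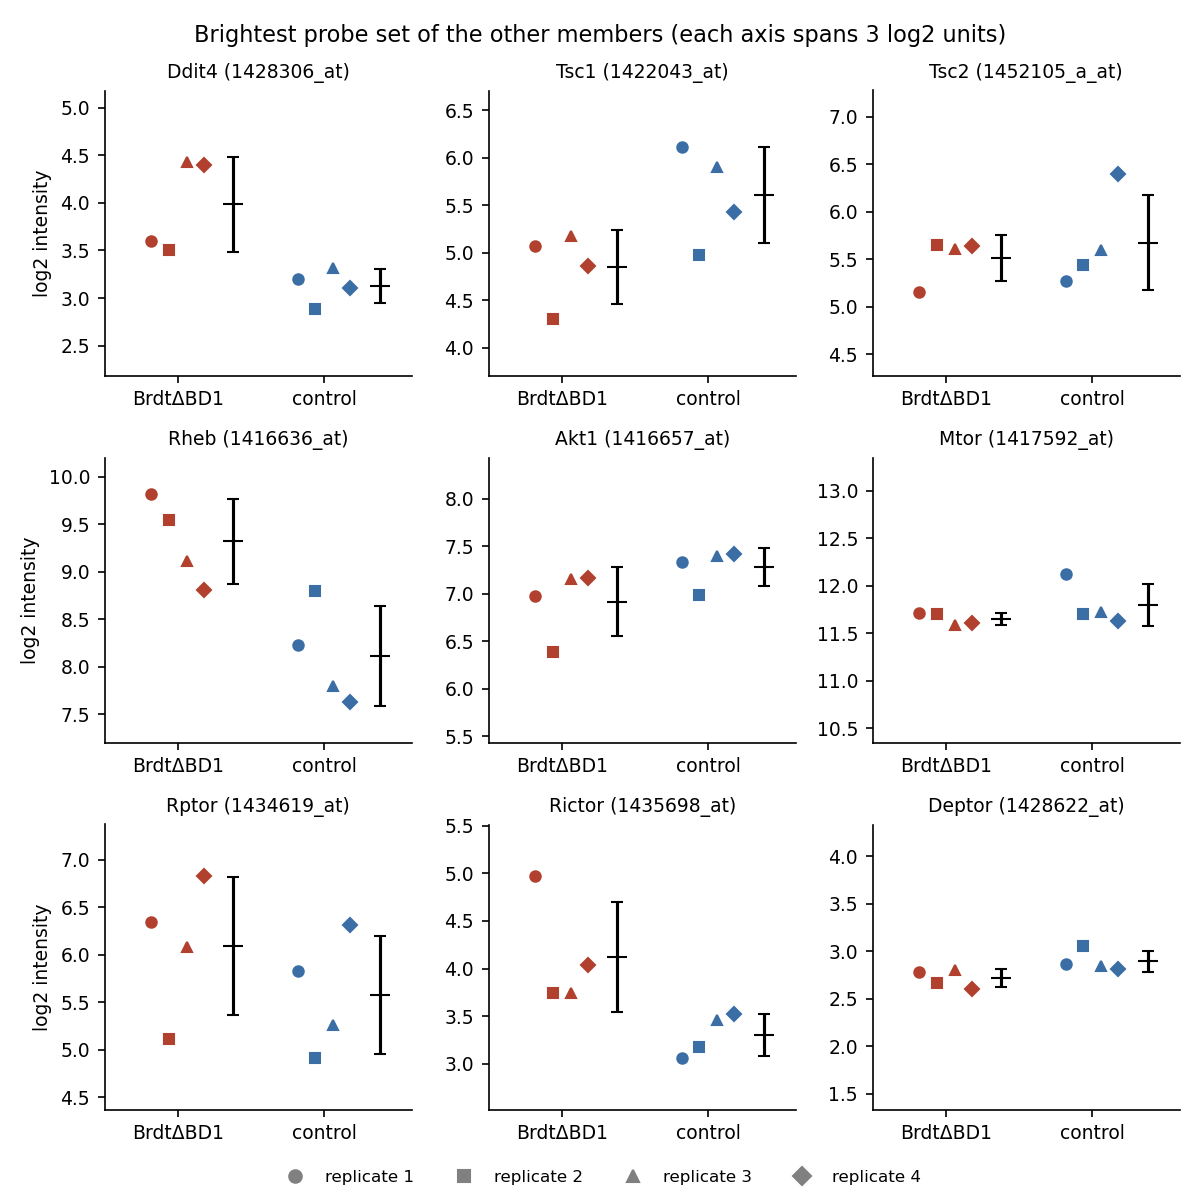
Log2 intensity of the brightest probe set of the other 9 genes on each array, with BrdtΔBD1 arrays left of control arrays, marker shapes for the replicate numbers, bars for mean ± SD (n = 4) and every axis spanning 3 log2 units. Rheb, Ddit4 and Rictor are higher in mutant arrays without overlap, Deptor is lower without overlap at under 3.1, and the groups of Tsc1, Tsc2, Akt1, Mtor and Rptor overlap.

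Over all 30 probe sets, 9 had a mean of 4 or more and 21 read lower. In limma over all probe sets with Benjamini-Hochberg adjustment, 1 of the 30 passed an adjusted p of 0.05 downward, that of Ddit4l by which the set was chosen, where 0.702% of all probe sets did. Upward 0 of the 30 passed, beside 0.717% of all probe sets, and at an unadjusted p under 0.05 there were 3 upward and 3 downward, beside 8.43% and 6.69% of all probe sets. The groups did not overlap for 4 probe sets with mutant higher and 3 with mutant lower, where 4.73% and 4.75% of all probe sets behaved so. The median difference of the 30 was -0.03, and that of all probe sets -0.03. Since the set was chosen on this contrast, nothing is read from these counts.

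Arrays that share a replicate number in their titles deviated together from their group means, so differences within the 4 pairs were also formed. For Ddit4l they were -2.65, -2.48, -2.97 and -2.36 in pairs 1 to 4. For Rheb they were 1.58, 0.75, 1.32 and 1.18, and for Ddit4 0.40, 0.62, 1.11 and 1.29. Tsc1 1422043_at was lower in every pair, with differences of -1.04, -0.67, -0.72 and -0.57. The probe sets read here for these genes kept 1 sign in all 4 pairs. So did Rptor 1434619_at at 0.52, 0.20, 0.82 and 0.52, whose arrays 2 were the lowest of both groups. Rptor 1430784_a_at kept the opposite sign, at -0.46, -0.26, -0.28 and -0.70. A constant sign was not limited to the probe sets just named, since 6 of the 30 were higher and 10 lower in all 4 pairs. The lower ones include Mtor 1417592_at, whose difference in pair 2 was only -2.6e-05. No such share is given here for all probe sets, and whether these counts are usual on these arrays was not tested. With the replicate number as a block, 2 probe sets passed upward, those of Ddit4 and Rheb, and 2 downward, those of Ddit4l and Tsc1 1422043_at, beside 3.92% and 2.50% of all probe sets. Nothing is read from these counts either, since they rest on the contrast by which the set was chosen. In that fit the differences were unchanged and the SE fell to 0.13 for Ddit4l, 0.15 for Rheb, 0.17 for Ddit4 and 0.11 for Tsc1.

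**Figure D4:**
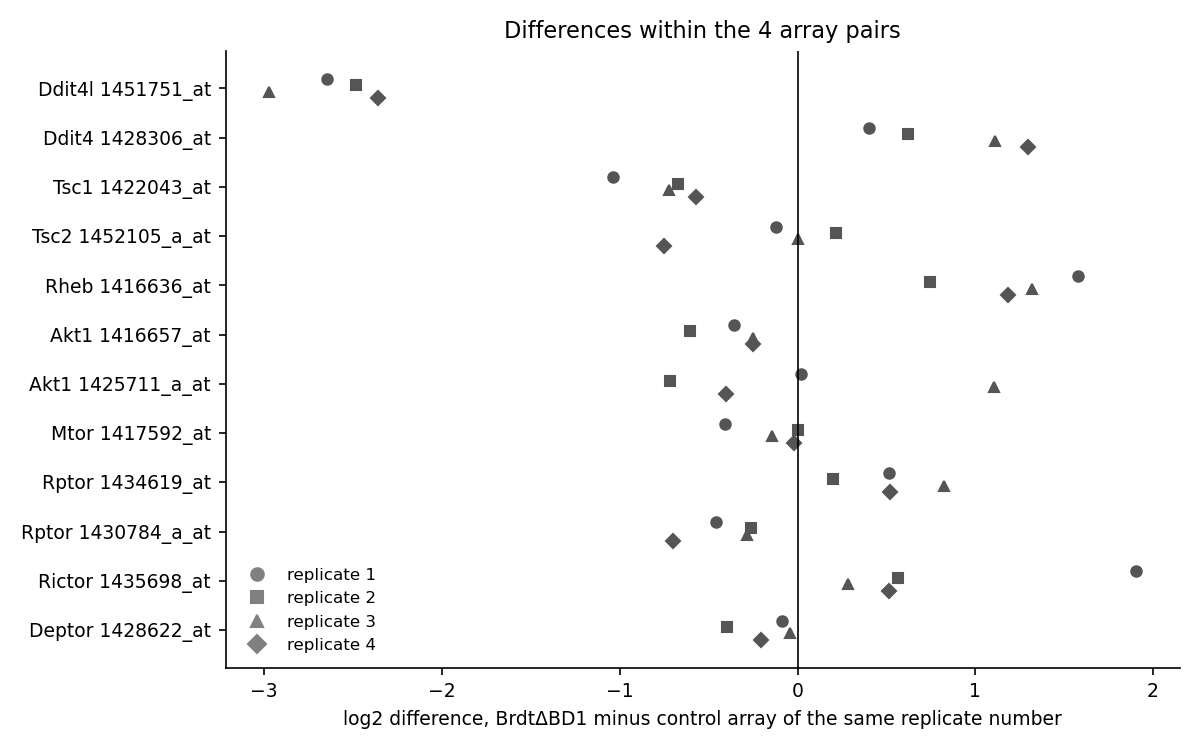
Log2 difference of the mutant minus the control array of the same replicate number, for the brightest probe set of each gene and every further one with a mean of 4 or more, with marker shapes for the 4 pairs. Ddit4l lies between -2.97 and -2.36, Rheb between 0.75 and 1.58, and Tsc2 and Akt1 1425711_a_at have pairs on both sides of 0.

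The genes whose profile over the 8 arrays was most like that of Ddit4l 1451751_at were sought among 7264 named genes with a mean of at least 5 in the higher group. The 5 most alike were Fam20a, a pseudokinase of the secretory pathway, Mterf2, a mitochondrial transcription termination factor family member, Cubn, the endocytic receptor cubilin, Lama2, a laminin chain, and Prss21, the membrane-anchored serine protease testisin of sperm. Their Pearson r was 0.995, 0.992, 0.991, 0.988 and 0.985 over 8 arrays, and all were lower in mutant arrays, with log2 differences of -3.20, -1.67, -1.46, -1.48 and -0.98. Over arrays in 2 groups such r values include the gap between the groups, and 204 of the 7264 genes reached 0.9. When deviations from the group means were compared instead, the 5 most alike were D8Ertd738e, Cdpf1, Mcf2l, Ptgr2, a prostaglandin reductase, and Uqcrfs1, the Rieske subunit of respiratory complex III, with r of 0.98, 0.96, 0.96, 0.95 and 0.95. Within groups the r of Ddit4l with the other members ran from -0.44 for Tsc2 to 0.67 for Mtor. By Spearman rho of the same deviations the range was -0.5 for Tsc2 to 0.83 for Mtor.

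A wider list of 124 genes around mTOR, which leaves out the 10 above, was examined gene by gene, each gene by its brightest probe set, and 117 of them were measured. In limma over all genes 4 rose, Sgk1, Sgk3, Ywhab and Ywhah, and 2 fell, Depdc5 and Insr. That is 3.42% and 1.71% of the list, beside 1.86% and 1.85% of all genes. The groups did not overlap for 15 genes with mutant higher and 8 with mutant lower, or 12.8% and 6.84%, beside 6.15% and 6.49% of all genes. An unadjusted p under 0.05 was reached by 27 genes upward and 9 downward, or 23.1% and 7.69%, beside 11.0% and 9.16% of all genes. More of the list had a mean of 4 or more, 82 of 117 genes, beside 8998 of 18193. Shares here and below therefore compare sets of unlike level. Among genes with a mean of 4 or more, 23.2% of the list upward and 8.54% downward had an unadjusted p under 0.05 (limma). For all such genes the shares were 14.8% and 12.5%. The median log2 difference of the list was 0.17, and that of all genes -0.02.

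The brightest probe set did not always carry the change. Counted over the 303 probe sets of these genes, 10 were called higher and 4 lower, or 3.30% and 1.32%, beside 0.717% and 0.702% of all probe sets. For 5 genes that did not pass by their brightest probe set another one did, and these were named after their values were seen. Map1lc3b, which encodes the autophagosome protein LC3B, averaged 7.76 in mutant and 6.10 in control arrays at 1415929_at (difference 1.65, SE 0.15, adjusted p = 0.0031, limma over probe sets), against a difference of 0.68 at its brightest. Eif4b, a translation initiation factor downstream of mTOR, averaged 7.17 and 6.33 at 1426380_at (0.84, adjusted p = 0.036), with -0.16 at its brightest. Pik3cd, a catalytic PI3K subunit, averaged 7.38 and 9.25 at 1453281_at (-1.87, adjusted p = 0.0042), with -0.50 (SE 1.72) at its brightest. The others were Ywhaz 1448218_s_at (1.01, adjusted p = 0.040) and Rhebl1 1447818_x_at (-0.94, adjusted p = 0.035), both with means under 4.

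Sgk3 and Sgk1 encode kinases of the AGC family related to AKT, and SGK1 is activated by mTOR complex 2. Sgk3 read 6.86, 6.58, 6.94 and 7.08 on mutant arrays, against 5.59, 5.72, 5.73 and 5.85 on control arrays, a 2.21-fold rise (log2 difference 1.14, SE 0.13, adjusted p = 0.0038, limma). The groups were more than 0.7 apart. Its 3 probe sets had differences of 1.14, 0.82 and 0.77. Sgk1 passed upward from low readings, 3.61 ± 0.11 in mutant and 2.92 ± 0.16 in control arrays (SD, n = 4 each; difference 0.70, SE 0.12, adjusted p = 0.020, limma), from which no fold in RNA is given. Sgk2, the remaining member of the family, had a difference of -0.82 (SE 0.21, adjusted p = 0.065, limma).

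Ywhab and Ywhah encode 14-3-3 proteins, adaptors that bind phosphorylated partners, among them TSC2, whose sequestration by 14-3-3 proteins is relieved by DDIT4 in mammalian cells. Ywhab read 10.23, 8.98, 9.88 and 9.18 on mutant arrays, against 7.79, 7.19, 8.27 and 7.80 on control arrays, a 3.50-fold rise (log2 difference 1.81, SE 0.31, adjusted p = 0.021, limma). The groups did not overlap. Its 6 probe sets were all higher in mutant arrays, by 0.66 to 1.81. Ywhah rose 1.85-fold, 8.51 ± 0.29 against 7.63 ± 0.18 (SD, n = 4 each; adjusted p = 0.028, limma). The other 14-3-3 genes did not pass by their brightest probe set, with differences of 1.99 (SE 0.66) for Ywhag, 0.51 for Ywhaq, 0.19 for Ywhaz, -0.09 for Ywhae and -0.15 for Sfn.

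Depdc5, a subunit of the GATOR1 complex that restrains mTOR when amino acids are scarce, fell by 0.97 (SE 0.19) on the log2 scale, with 5.06, 4.71, 5.06 and 4.93 on mutant arrays against 6.31, 5.39, 5.99 and 5.94 on control arrays (adjusted p = 0.033, limma). The fall is that of 1 probe set. The other 5 Depdc5 probe sets read under 4.2 on average with differences of -0.06 to -0.28, and the mean of all 6 did not pass (adjusted p = 0.11, limma). Insr, the insulin receptor, fell by 0.65 (SE 0.13), with 3.23 ± 0.14 in mutant and 3.88 ± 0.19 in control arrays (SD, n = 4 each; adjusted p = 0.035, limma), both low readings. Phlpp1, a phosphatase that dephosphorylates AKT, came next among lower genes, at -0.87 (SE 0.21, adjusted p = 0.058, limma), with 9.85 in mutant and 10.72 in control arrays.

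Of these 6 calls, that of Sgk3 passed in all 8 fits that leave out 1 array and have no block, with adjusted p up to 0.019 in limma. Ywhab passed in 5 (adjusted p up to 0.072, without mutant array 3), Sgk1 in 4 (up to 0.070), Ywhah and Depdc5 in 2 (up to 0.086 and 0.098) and Insr in 1 (up to 0.094, without mutant array 3). The Sertoli marker mean was 6.96 in mutant and 5.48 in control arrays. With it as a covariate the difference of Ywhab was 0.77 (SE 0.44), of Ywhah 0.52 (SE 0.29), of Sgk3 0.78 (SE 0.21), of Sgk1 0.76 (SE 0.23), of Depdc5 -1.27 (SE 0.36) and of Insr -0.68 (SE 0.26). None of the 117 genes passed in that limma fit, nor without control arrays 1 and 3, while 16 higher and 7 lower genes in the first (13.7% and 5.98%, beside 6.97% and 6.30% of all genes) and 16 and 9 in the second (13.7% and 7.69%, beside 8.41% and 5.88%) had an unadjusted p under 0.05. Without both of these arrays the difference of Sgk3 was 1.08 (SE 0.17, adjusted p = 0.076, limma) and that of Ywhab 2.07 (SE 0.39, adjusted p = 0.11).

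Counts by pathway group, from the brightest probe set of each gene, were small, and differences between groups were not tested. Beside them and those of the remaining groups, 1.86% of all genes rose and 1.85% fell in limma. An unadjusted p under 0.05 was reached by 11.0% of all genes upward and 9.16% downward. Of 28 measured genes of amino acid sensing on the lysosome 0 rose and 1 fell, with an unadjusted p under 0.05 for 9 genes upward and 5 downward (limma) and a median of 0.31. Of 11 stress inducers of DDIT4 and 14-3-3 genes 2 rose, with an unadjusted p under 0.05 for 7 upward and 0 downward (limma) and a median of 0.51. Here Hif1a, the hypoxia factor that induces DDIT4, read 5.94, 3.74, 5.68 and 4.90 on mutant arrays, against 3.50, 3.32, 3.66 and 3.30 on control arrays (adjusted p = 0.073, limma), low on mutant array 2, which also had the lowest Sertoli mean of its group. Of 15 genes of the PI3K and insulin receptor branch 1 fell, with an unadjusted p under 0.05 for 3 upward and 2 downward (limma, median 0.01). Of 9 AGC kinase, FOXO and GSK3 genes 2 rose, with an unadjusted p under 0.05 for 3 upward and 1 downward (limma, median 0.26). Of 23 autophagy and lysosome genes 0 passed in limma (Map1lc3b only by another probe set, as above). An unadjusted p under 0.05 was found there for 4 upward and 0 downward (limma, median 0.11).

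In the remaining groups no gene passed in limma by its brightest probe set, while another probe set of Eif4b and of Rhebl1 did. They were the 8 further subunits and assembly factors of the mTOR complexes (0 at an unadjusted p under 0.05), the 12 AMPK and LKB1 genes (1 higher), the 9 translation outputs (0) and the TSC subunit and Rheb paralog (1 lower). Their medians were 0.04, 0.03, 0.05 and -0.16. Mlst8, the subunit common to both complexes, had a difference of -0.28 (SE 0.14), Mapkap1, which encodes the SIN1 subunit of complex 2, 0.18 (SE 0.23), and Akt1s1, the PRAS40 inhibitor of complex 1, 0.10 (SE 0.34). With the Sertoli covariate the differences were 1.098 (SE 0.24) for Mapkap1 and 1.08 (SE 0.52) for Akt1s1, with adjusted p of 0.078 and 0.43 in limma. Tbc1d7, the third TSC subunit, had 0.58 (SE 0.36), and Rhebl1, the Rheb paralog, -0.91 (SE 0.22, adjusted p = 0.062, limma) with 3.58 in mutant and 4.48 in control arrays. The differences of Akt2 (0.51, SE 0.17), Eif4ebp1, a translation repressor inactivated by mTOR (0.15, SE 0.33), Atf4, a stress transcription factor that induces DDIT4 family genes (0.41, SE 0.18), and Ulk1, the autophagy kinase that mTOR inhibits (0.28, SE 0.14), did not pass either, with adjusted p from 0.13 to 0.86.

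With the replicate number as a block, 19 of the 117 genes rose and 6 fell, or 16.2% and 5.13%, beside 6.60% and 4.94% of all genes. The 6 calls made without the block were among them. Genes whose brightest probe set passed only with the block included the autophagosome genes Gabarapl1 (0.83, adjusted p = 0.0090, limma with the block) and Map1lc3b (0.68, adjusted p = 0.013), the sestrins Sesn1 (0.77) and Sesn2 (0.75), Hif1a (1.62) and Txnip (0.82) upward, and Phlpp1, Rhebl1, Kptn (-0.48) and Sec13 (-0.52) downward. Akt2 was another of these, upward (0.51, adjusted p = 0.046, limma with the block). In the amino acid sensing group 7 rose and 3 fell in that fit, and among stress inducers and 14-3-3 genes 6 of 11 rose.

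**Figure D5:**
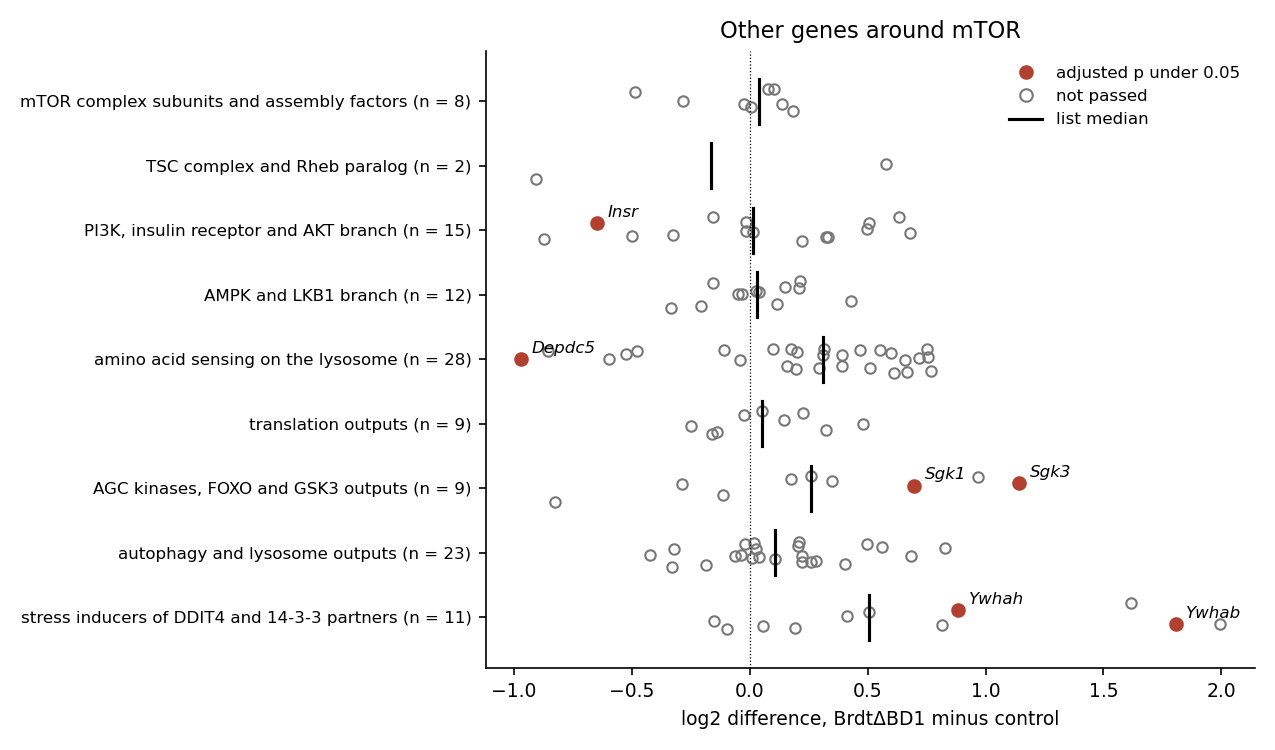
Log2 difference (mutant minus control) of the 117 measured genes by pathway group, from the fit without a block, with filled points for genes past an adjusted p of 0.05, open points for the others and a black bar at each group's median. The filled points are Sgk1, Sgk3, Ywhab and Ywhah above 0 and Insr and Depdc5 below 0, and the stress and 14-3-3 group has the highest median, 0.51.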

How the data were processed

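The authors deposited 1 normalized log2 intensity per probe set and array. GCRMA and limma are named in the submitters' processing notes, without versions or roles that the sources used here give. Array medians lay between 3.10 and 3.14. Precision is limited by the number of arrays, 4 a group.

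Tests ran on 45037 of 45101 probe sets, without the 64 control ones. The platform annotation gives 1 gene to 34945, several to 932 and none to 9160, and symbols were updated through RefSeq (34741 found). Each of 18193 genes was read by its brightest probe set (mean of 8 arrays, single-gene ones only). Differences, moderated SE and two-sided p-values come from limma 3.58.1 in R 4.3.3 with group as the only term, Benjamini-Hochberg adjustment and a threshold of 0.05. The fit was tried on simulated data with independent noise for each array, which does not cover arrays that deviate together. Replicate numbers pair the arrays, since all same-number pairs correlated above 0.1 in their deviations (0.40, 0.43, 0.54 and 0.45, against -0.31 to 0.07 for different numbers). Only the fit with the replicate block and the differences within pairs use this pairing. The other fits, those that leave out 1 array among them, count the shared deviation of paired arrays as error.

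The genes and lists were chosen with earlier results of these data known. Named genes of the wider list are those past the threshold, the 3 smallest unadjusted p in a direction with fewer than 3 calls, and a fixed set (Mlst8, Akt1s1, Mapkap1, Tbc1d7, Rhebl1, Akt2, Eif4ebp1, Atf4, Ulk1, with further members not reported here), and by likeness the 5 highest r of each kind without clone names. Sgk2, Hif1a, Txnip, Eif4b, Pik3cd, Gabarapl1, Map1lc3b, Sesn1, Sesn2, Kptn, Sec13 and the other 14-3-3 genes were named after their values were seen. Alternatives left out each array or control arrays 1 and 3, added the replicate block or the Sertoli mean, or changed scaling, filter, variance model, array weights or the probe set of a gene.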

Additional observations from a re-analysis of the deposited data

Results flagged for a closer look

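In 92 groups of 4 arrays, 8 held an array far from the other 3 by Dixon's ratio (critical value 0.829), where chance flags about 1 in 20 groups. Mutant array 1 was low for Tsc2 (5.15, against 5.60 to 5.65 on the other mutant arrays) and high for Rictor 1453775_at (3.64, against 2.61 to 2.76) and Tbc1d7 (6.33, against 4.82 to 5.03). Mutant array 2 was low for Phlpp1 (9.21, against 10.05 to 10.08) and high for Mapkap1 (11.49, against 10.69 to 10.76). Control array 3 was high for Insr (4.16, against 3.77 to 3.79 on the other control arrays). Close to the floor, control array 2 was high for Deptor 1419963_at (2.80, against 2.53 to 2.58) and control array 1 for Deptor 1459719_at (1.74, against 1.67 to 1.68).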

How the results depend on the processing

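Calls upward and downward numbered 323 and 316 over probe sets and 339 and 336 over genes. With the replicate block they were 1767 and 1127 over probe sets and 1201 and 899 over genes, with array weights 804 and 535 over probe sets and 980 and 675 over genes, without control arrays 1 and 3 5 and 30 over probe sets and 18 and 50 over genes, and with the Sertoli covariate 1 and 2 over probe sets and 53 and 47 over genes. Upward probe set calls were 499 with an intensity trend, 533 with a minimum mean of 4 and 558 with median centring. Leaving out 1 array gave 74 to 936 upward and 115 to 387 downward probe sets, 70 to 755 and 129 to 376 genes, with the low ends without mutant array 3 and the high ends without mutant array 2.

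Of the 30 probe sets, 2 passed in each direction with the block, 1 passed upward with array weights and with median centring, and 0 passed downward with the Sertoli covariate (limma, 3 at an unadjusted p under 0.05). Leaving out 1 array kept 0 upward and 1 downward, the downward one being Ddit4l, whose difference ran from -2.71 to -2.46 over 15 alternatives. Genes of the wider list that passed numbered 19 up and 6 down with the block, 14 and 5 with array weights, 7 up with median centring, 4 down with an intensity trend, 1 down with the mean of all probe sets of a gene, and 0 and 0 both with the Sertoli covariate and without control arrays 1 and 3 (limma, unadjusted counts in the text). Leaving out 1 array gave 1 to 9 up and 0 to 4 down.

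Small differences changed sign for Akt1s1 (-0.08 without mutant array 2, -0.19 without control array 3, up to 0.31 when 1 array was left out, -0.32 without control arrays 1 and 3, 1.08 with the Sertoli covariate), Mapkap1 (-0.0057 without mutant array 2, up to 0.31 when 1 other array was left out, 1.098 with the Sertoli covariate) and Eif4ebp1 (-0.21 without mutant array 1, up to 0.33 when 1 other array was left out, -0.12 with array weights, -0.18 with the Sertoli covariate). So did those of Rptor 1434619_at (-0.56) and Mtor 1417592_at (0.06) with the Sertoli covariate and of Tsc2 (0.08 without control array 4). That of Akt1 1425711_a_at ran from -0.35 to 0.41 when 1 array was left out, and was -0.90 without control arrays 1 and 3. Of the 5 genes most like Ddit4l by Pearson r, Cubn and Prss21 shared rank 1 by Spearman rho (1), and Fam20a, Mterf2 and Lama2 shared rank 7 (0.976). Tied genes were given the best rank of their tie. The next rho, 0.952, came only at rank 33, so many other genes shared rank 7. The block ended none of the calls made without it among the wider list or the 30 probe sets. The causes of these changes were not tested.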
